A study of Mus musculus with 4 samples.

Results

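A list of 40 cell cycle genes, 18 that act in S phase and 22 that act in G2 and mitosis, was followed through the cell classes of the embryonic mouse heart. The list was fixed by gene name, and all 40 were among the 30268 genes of the table. Hearts were profiled by Drop-seq, in which single cells are lysed in droplets with barcoded beads and 3' tags of transcripts are counted once per original molecule (unique molecular identifiers, UMIs). Controls were Wt1 CreERT2/+ with Rosa26mTmG/+, and the knockouts, called Lats1/2 CKO, carried Lats1/2 F/F as well. Both genotypes therefore carried 1 Cre knock-in allele at Wt1 and the mTmG reporter, a membrane tdTomato that turns to membrane EGFP after recombination. CreERT2 acts only after tamoxifen and only where Wt1 is expressed, in this organ mainly the epicardium, so other cell classes of a CKO heart need not have lost Lats1 and Lats2. Each genotype was sampled once per stage (E13.5 and E14.5), which makes 4 libraries, and the series' design text gives day 13.4 for the earlier stage. The number and sex of embryos per library, the tamoxifen schedule and any sorting are not given in the sources used here. With 1 library a group, intervals given for single libraries cover counting error only, and p-values measure the spread between these 4 libraries, which may be technical.

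A dividing cell passes through the G1, S, G2 and M phases, and a different set of genes is switched on in each. S phase genes supply nucleotides and build the replication machinery: Mcm2 to Mcm7 form the helicase that opens DNA, Pcna is the clamp that holds the polymerase, and Rrm1 and Rrm2 are the subunits of ribonucleotide reductase. Most S phase genes are controlled by E2F factors. G2/M genes build and regulate the spindle and the cleavage furrow, among them Top2a, which untangles DNA, Ube2c, an enzyme of the anaphase-promoting complex, and Mki67, the proliferation antigen Ki-67. The MuvB complex binds the CHR element of their promoters, often beside CCAAT boxes. As part of DREAM it keeps these genes off in quiescent cells and in G1, and together with B-Myb and FoxM1 it switches them on later in the cycle. In the fetal heart cardiomyocytes still divide, and compact wall myocytes divide more than those of the trabeculae, which are marked by the natriuretic peptide genes Nppa and Nppb. Lats1 and Lats2 are the kinases of the Hippo pathway that restrain the growth regulators YAP and TAZ.

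The promoters of both groups were set side by side to show how they differ in sequence, which the choice of the list did not use. RefSeq windows of 300 bases (250 before and 50 after the gene start, GRCm38.p6) were at hand for 33 of the 40 genes, and none for Ccna2, Gins2, Mcm4, Aurkb, Esco2, Tpx2 and Ccne2. The E2F letters searched on both strands were TTTGGCG, its variant TTTCCCG and a further variant TTTCGCG. They were in the windows of 8 of 14 S genes (57.1%), 2 of 19 G2/M genes (10.5%) and 6.38% of all 27025 genes with a window. The CHR letters searched were TTTGAA and its variant TTCGAA. They were in 15 of 19 G2/M genes (78.9%), 2 of 14 S genes (14.3%) and 21.7% of all genes. CCAAT was in 16 of 19 G2/M genes (84.2%), 9 of 14 S genes (64.3%) and 41.1% of all genes. A match is a run of letters and not a bound site. The 140 bases before the start are printed for 4 G2/M genes with a CHR match in this stretch, among them the members with the most UMIs. They are also printed for 2 S genes with an E2F match in it. No whole CHR match lay in this stretch for Ccnb2, Cenpa, Cenpf, Hmmr, Anln, Spc25, Aurka, Bub1 and Plk1, which are among the 15. Mcm3, Mcm5 and Cdt1, among the 8, likewise held no whole E2F match in it. Sequences read 5′ to 3′ on the gene's strand, with CHR and E2F matches in capitals.
Top2a (chr11:99024190-99024329, - strand): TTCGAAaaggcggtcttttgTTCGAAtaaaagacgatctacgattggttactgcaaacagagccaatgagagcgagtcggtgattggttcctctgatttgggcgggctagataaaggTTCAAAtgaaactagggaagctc
Ube2c (chr2:164769789-164769928, + strand): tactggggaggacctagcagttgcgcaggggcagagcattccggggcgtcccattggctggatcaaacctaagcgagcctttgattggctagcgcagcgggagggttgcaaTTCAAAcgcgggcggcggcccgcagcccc
Mki67 (chr7:135716380-135716519, - strand): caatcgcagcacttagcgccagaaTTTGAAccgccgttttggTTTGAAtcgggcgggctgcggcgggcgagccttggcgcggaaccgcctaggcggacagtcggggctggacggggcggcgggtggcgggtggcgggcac
Cdk1 (chr10:69352913-69353052, - strand): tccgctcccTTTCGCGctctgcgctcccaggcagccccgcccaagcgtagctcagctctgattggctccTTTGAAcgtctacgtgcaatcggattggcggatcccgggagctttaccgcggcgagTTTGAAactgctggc
Mcm6 (chr1:128359706-128359845, - strand): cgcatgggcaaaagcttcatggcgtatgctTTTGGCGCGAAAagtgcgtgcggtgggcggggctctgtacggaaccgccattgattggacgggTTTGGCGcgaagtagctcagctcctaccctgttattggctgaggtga
Hells (chr19:38930850-38930989, + strand): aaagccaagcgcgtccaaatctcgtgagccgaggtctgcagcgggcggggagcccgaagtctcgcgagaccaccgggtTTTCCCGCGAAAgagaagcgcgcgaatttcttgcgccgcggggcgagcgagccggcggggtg

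Top2a carried 3 CHR matches in this stretch, Mki67 and Cdk1 carried 2 and Ube2c carried 1, and Cdk1 held an E2F match as well. The matches of Mcm6 and Hells overlapped in part, 3 and 2 of them. The E2F letters were in neither window of the reductase genes Rrm1 and Rrm2.

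Of 24849 deposited cells 21495 were kept, and the libraries held between 8569238 and 17073173 UMIs with a median of 955 to 2015 UMIs per cell. E14.5 cells were shallower than E13.5 cells, so cells were thinned to 500 UMIs each before shares were compared. Cells were placed in 8 classes from marker genes that include no cell cycle gene, and the names rest on transcripts alone: cardiomyocyte-like, epicardial-like, fibroblast-like, valve mesenchyme-like, mural-like, coronary endothelial-like, endocardial-like and macrophage-like, written without the suffix from here on. They held 15244 cells, and 6251 cells with mixed or unclear markers stayed out, 26.5% to 33.5% of a library. Between 3.12% (fibroblast) and 35.2% (endocardial) of a class lay near the cut of the marker score, where a stricter lead would drop them. Cells were gated on these same lists, and fibroblasts on a Tcf21 UMI as well, so the marker levels describe the gate and do not test it. The cardiomyocyte class, for example, held its own list at a summed 60090 to 63901 CPM over the libraries, against 420 to 5724 in the others. CPM are counts divided by the summed UMIs of the class and scaled. Some markers were higher in another class, with all libraries summed. In the coronary list these were Fabp5 (1418 CPM, endocardium 1730), Lyve1 (41.4, macrophages 2250) and Car4 (0.545, epicardium 16.4). The other coronary markers were highest in coronary endothelium. Of the fibroblast list, Tcf21, Pdgfra and Col3a1 were highest in fibroblasts, while Lum, Dpt and Postn were higher in valve mesenchyme. The epicardial class is set off by its own list (6725 to 7183 CPM, Upk3b included), but it also held the fibroblast list at 17941 to 29627 CPM, above the 15623 to 18720 CPM of the fibroblast class itself, which is set off by Tcf21. Libraries shared at most 2 cell barcodes.

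The 40 genes made up 0.534% of all UMIs, 0.157% from the S list and 0.377% from the G2/M list. Top2a gave the most, 21197 UMIs, followed by Ube2c (15599), the centromere histone Cenpa (13155), the spindle midzone protein Prc1 (11297), Mki67 (11237) and the kinetochore protein Cenpf (11056). The most abundant S genes were Rrm2 (8101 UMIs), Rrm1 (7459), Pcna (6935) and Mcm3 (4882). The replication licensing factor Cdc6 was the least abundant member with 1050 UMIs. Rrm2 (ENSMUSG00000020649) lies on chromosome 12 at 24708241 to 24714146, Top2a (ENSMUSG00000020914) on chromosome 11 at 98992943 to 99024189 and Mki67 (ENSMUSG00000031004) on chromosome 7 at 135689784 to 135716361 (GRCm38, GENCODE M21). These totals are 3' tags per transcript and were not scaled to gene length.

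Within single cells the 2 lists behaved as separate groups. Of thinned cells, 34.8% had no member UMI, 9.07% had at least 2 S genes and fewer than 2 G2/M genes, 24.1% had the reverse, and 6.87% had at least 2 of both. The S and G2/M UMIs of a cell correlated weakly over the 15244 cells (Pearson's r of 0.091; cells share libraries and depth, so this is a description). Every S gene was found with other S genes: a cell with an S gene had at least 2 further S genes 2.00 to 3.46 times as often as a cell without it, with Rrm1 lowest and Cdc6 highest. Every G2/M gene was found with other G2/M genes 2.44 to 3.24 times as often, with the B-type cyclin Ccnb2 lowest and Ube2c highest. The helicase genes Mcm2, Mcm3, Mcm4 and Mcm6 showed almost no such link to G2/M genes. At least 2 G2/M genes were in 28.4% of cells with Mcm3 and in 31.1% of cells without it. Some S-list genes crossed over. At least 2 G2/M genes were in 70.2% of cells with the cohesin acetyltransferase Esco2 against 29.6% without it, in 58.2% against 28.9% for Rrm2 and in 51.4% against 29.4% for Rrm1. On the other side, Top2a was found with S genes more often than most G2/M genes, with at least 2 S genes in 27.4% of its cells against 13.9% of the rest. Cenpa was the G2/M gene found least often with S genes, at 12.3% against 16.4%.

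The share of cells with at least 3 members ran from coronary endothelium and macrophages at the top to epicardium and endocardium at the bottom. Coronary endothelial cells reached 42.2% ± 4.27 (SD, n = 4 libraries), macrophages 41.3% ± 7.81, fibroblasts 39.2% ± 8.53 and cardiomyocytes 35.8% ± 4.24. Mural cells followed with 29.5% ± 5.67, valve mesenchyme with 24.1% ± 4.89, epicardial cells with 19.4% ± 3.82 and endocardial cells with 18.8% ± 1.38. Only the step from cardiomyocytes to mural cells, 6.30 points ± 4.03, had the same sign in 4 of 4 libraries; every other pair of neighbours in this order changed places in at least 1 library. Against cardiomyocytes, the mural, valve, epicardial and endocardial shares were lower in 4 of 4 libraries, by 6.30, 11.7, 16.4 and 17.0 points on average, and the coronary share was higher in 4 of 4, by 6.40 points. An exact two-sided sign-flip permutation test over 4 libraries cannot go below p = 0.13, the value for each of these 5 classes (0.175 after Benjamini-Hochberg adjustment over 7 classes).

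**Figure D1:**
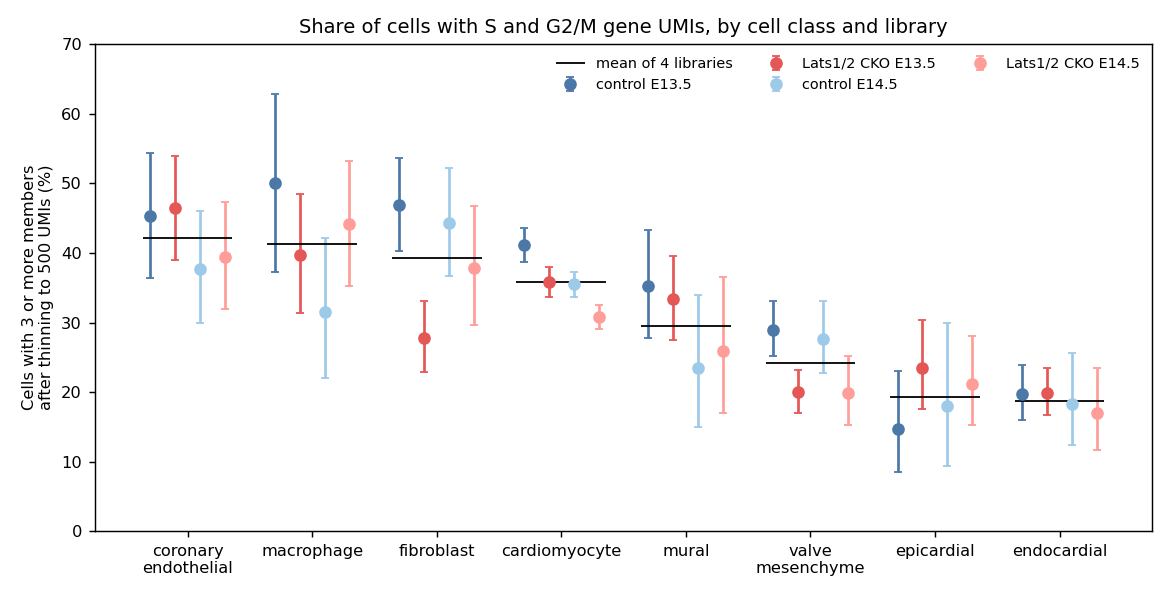
Share of thinned cells with at least 3 of the 40 members (y axis, percent) in each cell class (x axis). Points are the 4 libraries with exact binomial 95% intervals and lines are their means. The endocardial and epicardial points lie between 14.7% and 23.5%, and the coronary endothelial points between 37.7% and 46.4%.

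The share depends on depth, and no class gave a clean background. Without thinning the means were 67.6% in coronary endothelium, 62.3% in cardiomyocytes, 50.6% in epicardium, 40.7% in endocardium and 38.0% in valve mesenchyme, so that epicardium then stood above endocardium and valve. Haemoglobin-rich cells, 21 to 67 per library with median depths of 689 to 1891 UMIs, had shares of 9.52%, 43.8%, 23.9% and 31.0% in control E13.5, CKO E13.5, control E14.5 and CKO E14.5. Erythroid cells of this age can divide themselves, so their values do not give a floor, and the epicardial and endocardial shares lie inside their range. The variance of the member UMIs per thinned cell was 2.52 to 5.86 times their mean over the 32 class and library combinations. The part of free RNA in the shares was not tested. Cardiomyocytes with at least 3 members had 1.15 to 1.30 times the median UMIs, before thinning, of cardiomyocytes with none. The mean of this ratio was 1.71 in coronary endothelium and 1.45 in both macrophages and fibroblasts, the classes with the highest shares. It was 1.27 in endocardium, 1.24 in valve mesenchyme, 1.20 in both cardiomyocytes and mural cells and 1.05 in epicardium.

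Summed UMIs gave nearly the same order. The 40 genes made up 0.582% ± 0.041 of the thinned UMIs of coronary endothelial cells, 0.573% ± 0.081 of macrophages, 0.539% ± 0.091 of fibroblasts and 0.505% ± 0.047 of cardiomyocytes (SD, n = 4 libraries). Mural cells had 0.453% ± 0.067, valve mesenchyme 0.416% ± 0.068, endocardial cells 0.337% ± 0.032 and epicardial cells 0.332% ± 0.060. The 2 lists were not in one proportion. G2/M UMIs were 1.69 ± 0.146 times the S UMIs in endocardial cells, 2.55 ± 0.366 times in cardiomyocytes and 2.82 ± 0.873 times in valve mesenchyme.

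**Figure D2:**
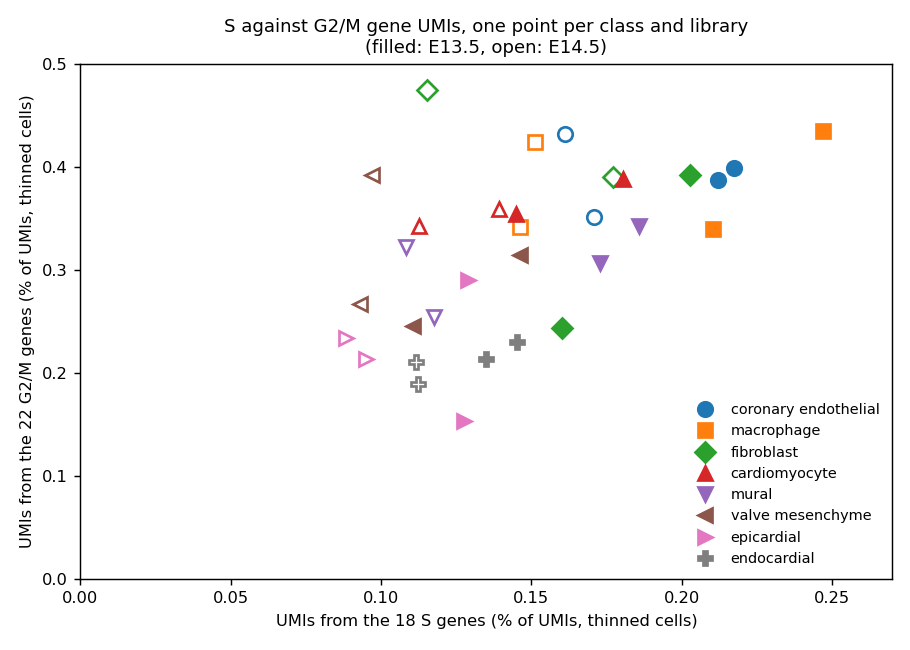
UMIs of the 22 G2/M genes (y axis) against UMIs of the 18 S genes (x axis), both in percent of the UMIs of thinned cells, with 1 point per class and library; filled points are E13.5 and open points E14.5. Endocardial points lie low on the y axis for their x value, between 0.189% and 0.230%, and in each class and genotype the E14.5 point lies left of the E13.5 point.

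Counts summed per class and library were then compared for every gene with edgeR's quasi-likelihood test, each class against the mean of the other 7 with the library as a block, and p-values were adjusted over 10039 genes (Benjamini-Hochberg, threshold 0.05). All 40 members passed the filter on low counts. Members that passed the test were mostly higher in cardiomyocytes, and all higher in coronary endothelium and macrophages; in epicardium, endocardium and valve mesenchyme all that passed were lower. In cardiomyocytes 24 rose (34.5% of all genes did) and 4 fell (29.8%), with a median log2 difference of 0.41 against 0.01 over all genes. In coronary endothelium 21 rose (20%) and 0 fell (1825 of 10039 genes did), with a median of 0.36 against -0.02. In macrophages 18 rose (19.6%) and 0 fell (2259 of 10039 genes did), with a median of 0.36 against -0.11. In fibroblasts 5 of 40 rose (14.2% of all genes did) and in mural cells 1 of 40 (12.6%). In both classes 0 fell, where 817 and 646 of the 10039 genes did. An unadjusted p under 0.05 was found for 8 and 4 members, and for 3314 and 2977 of the 10039 genes. The fibroblast count depends on how cells were classed: with classes from clustering 14 of 40 rose, where 16.6% of all genes did.

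In epicardial cells 27 fell (14.1% of all genes did) and 0 rose (20.5%), with a median of -0.61 against -0.01. In endocardial cells 26 fell (17.2%) and 0 rose (2194 of 10039 genes did), with a median of -0.50 against -0.003. In valve mesenchyme 17 fell (15.4%) and 0 rose (2029 of 10039 genes did), with a median of -0.30 against -0.01. Epicardial cells were also compared directly with fibroblasts, a class that derives largely from the epicardium. Here 24 members were lower (10.7%) and 0 higher (1261 of 10039 genes were). These counts rest in part on single libraries. Without control E13.5 the epicardial count was 15 and the count against fibroblasts 9, without CKO E13.5 the valve count was 7 and the macrophage count 9, and the fibroblast count was 2 without control E13.5 or without control E14.5. The single mural call was lost without control E13.5, CKO E13.5 or CKO E14.5. With no term for the library, 15 members fell in endocardium and 6 in valve mesenchyme, and 2 rose in fibroblasts.

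**Figure D3:**
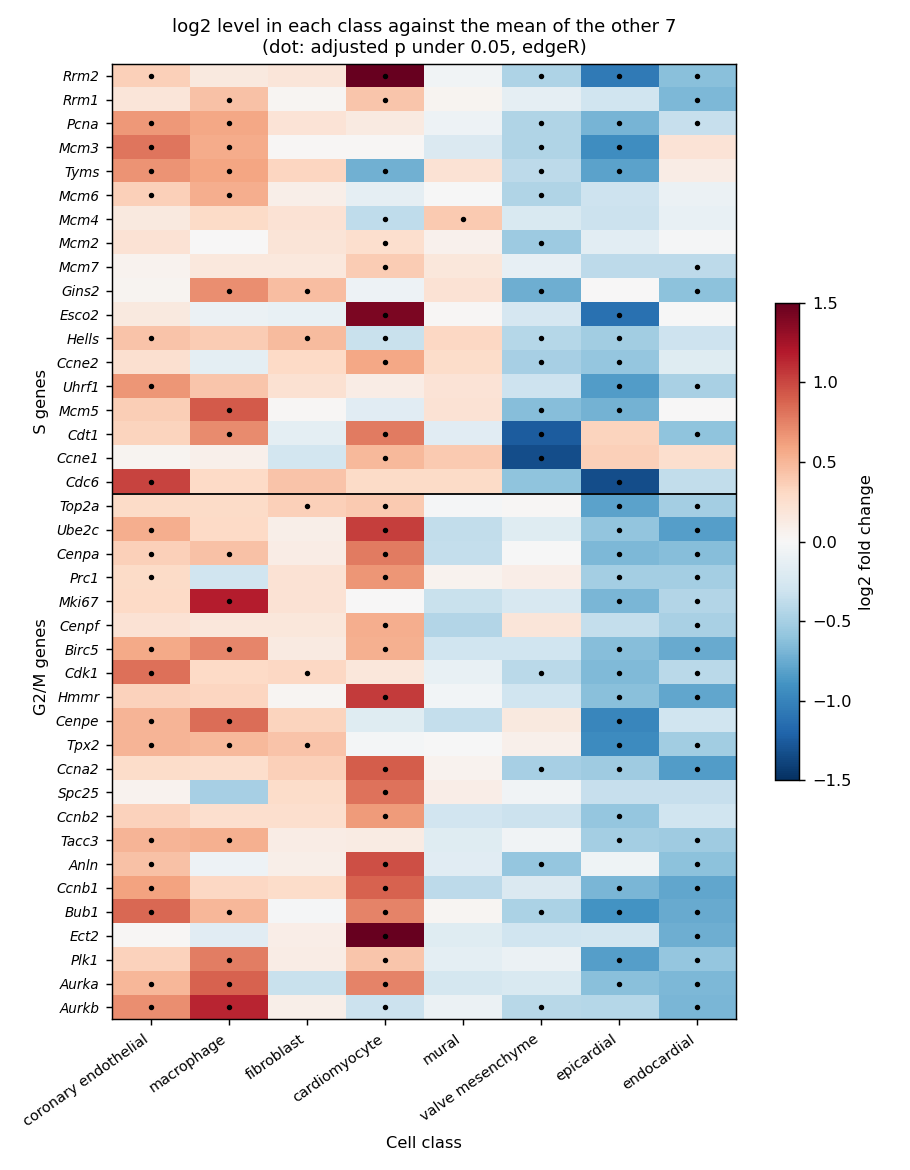
log2 difference of each member (rows, S genes above the line and G2/M genes below it, by falling UMI number) in each class (columns) against the mean of the other 7 classes, with a dot where the edgeR adjusted p is under 0.05. The epicardial and endocardial columns are mostly blue, and the cardiomyocyte column is darkest at Rrm2 (1.51), Ect2 (1.53) and Esco2 (1.41).

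The counts of the S list and the G2/M list are given side by side for the 3 classes in which every called member was lower. In valve mesenchyme 12 of 18 S genes fell but 5 of 22 G2/M genes, with medians of -0.45 and -0.22. The sharpest were the licensing factor Cdt1 at -1.25 ± 0.21 (log2 ± SE, adjusted p = 2.36e-06, edgeR) and cyclin E1, Ccne1, at -1.32 ± 0.25 (2.32e-05), while Top2a was at 0.02 ± 0.13. In endocardial cells 19 of 22 G2/M genes fell but 7 of 18 S genes, with medians of -0.59 and -0.24. Cyclin A2, Ccna2, was at -0.83 ± 0.14 (adjusted p = 3.29e-06, edgeR) and Ube2c at -0.82 ± 0.14 (5.24e-06), whereas Mcm3 was at 0.20 ± 0.11 and did not pass. In epicardial cells both lists fell, 10 of 18 and 17 of 22. Whether one list differs from the other within a class was not tested.

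Rrm2, the regulated subunit of ribonucleotide reductase, was the S gene that set cardiomyocytes apart most. It was at 306, 245, 192 and 186 CPM in the cardiomyocytes of control E13.5, CKO E13.5, control E14.5 and CKO E14.5. In epicardial cells it was at 14.2, 103, 25.9 and 53.4 CPM in the same order. The highest epicardial library stayed below the lowest cardiomyocyte library. Other classes overlapped: fibroblasts, macrophages and coronary endothelium of control E13.5 were at 228, 201 and 199 CPM, above the E14.5 cardiomyocytes, although within each of the 4 libraries cardiomyocytes were the highest class. The difference of cardiomyocytes from the other classes was 1.51 ± 0.09 on the log2 scale (adjusted p = 2.26e-21, edgeR). Rrm1, its partner subunit, differed less: 136 to 202 CPM in cardiomyocytes and 104 to 154 CPM in epicardial cells, with a log2 difference of 0.41 ± 0.07.

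Tyms, the thymidylate synthase, went the opposite way. It was at 80.1, 74.8, 60.4 and 53.0 CPM in cardiomyocytes against 216, 237, 164 and 172 CPM in coronary endothelium, with no overlap. Its log2 difference in cardiomyocytes was -0.72 ± 0.09 (adjusted p = 5.66e-10, edgeR). Mcm4, the chromatin remodeller Hells and the mitotic kinase Aurkb were the other 3 members lower in cardiomyocytes, at -0.38, -0.33 and -0.32.

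Esco2 and Ect2, the exchange factor that places the cleavage furrow, were also highest in cardiomyocytes. Ect2 was at 99.0, 101, 80.8 and 95.3 CPM in cardiomyocytes and at no more than 78.2 CPM in any other class and library, and its log2 difference was 1.53 ± 0.10 (adjusted p = 2.3e-19, edgeR). Esco2 was at 123, 99.7, 106 and 105 CPM in cardiomyocytes and at no more than 86.0 CPM elsewhere (1.41 ± 0.09, adjusted p = 3.05e-19, edgeR). No other cell class reached the cardiomyocyte libraries for either gene.

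Among the G2/M genes Ube2c was 1.04 ± 0.09 higher in cardiomyocytes on the log2 scale (adjusted p = 2.38e-14, edgeR), Cenpa 0.78 ± 0.08 and Prc1 0.66 ± 0.08. Mki67 was at 0.01 ± 0.10 (adjusted p = 0.963, edgeR). Its cardiomyocyte values were 204, 205, 243 and 237 CPM. Macrophages were its highest class, with 609, 479, 239 and 774 CPM and a log2 difference of 1.17 ± 0.16 (adjusted p = 8.27e-09, edgeR), and the control E14.5 macrophages, with 23 Mki67 UMIs, lay inside the cardiomyocyte range. Macrophages also had more Aurkb (1.14 ± 0.22, adjusted p = 2.12e-05, edgeR). Aurkb was at 172 and 129 CPM at E13.5 but at 52.0 and 39.0 CPM a day later, on 5 and 7 UMIs. Haemoglobin transcripts in the macrophage sums ran from 408 CPM in control E13.5 to 10325 CPM in control E14.5, and their part in these values was not tested.

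Top2a separated epicardium from fibroblasts. It was at 185, 397, 181 and 269 CPM in epicardial cells and at 782, 402, 639 and 534 CPM in fibroblasts of control E13.5, CKO E13.5, control E14.5 and CKO E14.5, so all 4 fibroblast values lay above all 4 epicardial values. The log2 difference was -1.02 ± 0.18 (adjusted p = 1.7e-05, edgeR). Rrm2 differed by -1.09 ± 0.24, Pcna by -0.79 ± 0.15 and Mki67 by -0.78 ± 0.20. In sums of this kind fewer dividing cells and less RNA per dividing cell cannot be told apart. Coronary endothelial cells had the most Mcm3, at 168, 227, 156 and 200 CPM against 97.6, 105, 89.5 and 73.2 CPM in cardiomyocytes, which lay lower in all 4 libraries; the log2 difference of the coronary class was 0.80 ± 0.11 (adjusted p = 1.75e-08, edgeR).

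Other genes of the pathway were read from 3 further lists. Of 35 tested G2 and M phase genes outside the members, 68.6% rose in cardiomyocytes (24 genes, against 34.5% of all genes), 57.1% in coronary endothelium (20, against 20%) and 37.1% in macrophages (13, against 19.6%), while 71.4% fell in epicardium (25, against 14.1%) and 57.1% in endocardium (20, against 17.2%). Of 28 further S phase genes, 42.9% rose (12, against 34.5%) and 17.9% fell (5, against 29.8%) in cardiomyocytes. In epicardium 60.7% of them fell (17, against 14.1%), and in fibroblasts 39.3% rose (11, against 14.2%). The histone chaperone Nasp and the nucleotide hydrolase Dut had the most UMIs of that list, and Dut was 0.88 ± 0.07 higher in cardiomyocytes. Smc4, a condensin subunit, and Cks1b, a Cdk subunit, led the G2 and M list; Smc4 fell in epicardium (-0.75 ± 0.12) but rose in endocardium (0.60 ± 0.10). Of 23 regulators tested, 30.4% rose (7, against 20.5% of all genes) and 26.1% fell (6, against 14.1%) in epicardium. Cdkn1c, a Cdk inhibitor that stops the cycle, was higher in epicardium (2.02 ± 0.12) and in endocardium (3.06 ± 0.11), and lower in macrophages (-3.55 ± 0.24) and in valve mesenchyme (-1.96 ± 0.17). Cyclin D2, Ccnd2, which drives entry into the cycle, was also higher in epicardium (1.20 ± 0.09) and in endocardium (0.92 ± 0.09).

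The 10 genes outside these lists whose log CPM followed the summed member CPM most closely over the 32 sums were Pa2g4, Anp32e, H2afx, 2810417H13Rik, Lsm6, Nsun2, Exosc8, Tuba1b, Psmd14 and Tuba1c, with Pearson's r from 0.84 to 0.76 among 3131 genes. The sums share libraries and depth, so these are descriptions.

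The next comparison was between genotypes within each class, at matched stage. Lats1/2 CKO hearts had a smaller share of cells with at least 3 members among cardiomyocytes, valve mesenchyme and fibroblasts at both stages, and a larger one among epicardial cells at both, which at E14.5 held only after thinning. In cardiomyocytes of E13.5 the share was 41.1% in control and 35.8% in CKO, and in those of E14.5 it was 35.5% and 30.8%. The ratios of CKO to control were 0.870 (95% interval 0.8001 to 0.945, from the log relative risk) and 0.868 (0.806 to 0.935). In valve mesenchyme the share was 29.0% and 19.97% on the earlier day and 27.7% and 19.9% on the later, ratios of 0.689 (0.563 to 0.844) and 0.717 (0.530 to 0.969). These intervals cover the counting of cells only, and with 1 library per genotype and stage there was no test of the shares between genotypes.

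In fibroblasts of E13.5 the share was 46.9% in control and 27.8% in CKO, and in those of E14.5 it was 44.3% and 37.9%. The ratio was 0.592 (0.472 to 0.743) and then 0.855 (0.648 to 1.13). Median depth in fibroblasts was 1816 UMIs in control and 2342 in CKO at E13.5. Without thinning the E13.5 shares were 66.7% and 67.0%, a ratio of 1.005, so the difference in this share was seen only at matched depth. The summed member UMIs were lower in CKO both ways: without thinning they were 0.721% and 0.521% of all UMIs. After thinning the summed member UMIs of these cells were 0.595% and 0.403% of the thinned total, a ratio of 0.678 (exact conditional interval 0.607 to 0.757), and at E14.5 they were 0.568% and 0.589% (1.04, 0.906 to 1.19). In CKO fibroblasts of E14.5 the G2/M UMIs were 4.12 times the S UMIs, above the 1.52 to 2.20 times of the other 3 fibroblast libraries.

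In epicardial cells the control share was 14.7% of 102 cells (exact binomial interval 8.47 to 23.1) at the earlier stage and 18.03% of 61 cells (9.36 to 29.98) at the later. The CKO shares were 23.5% of 183 cells (17.6 to 30.3) and 21.2% of 170 cells (15.3 to 28.1). The ratios, 1.60 (0.935 to 2.73) and 1.17 (0.639 to 2.16), were within counting error of 1 at this depth. Without thinning the shares were 45.1% and 62.8% at E13.5 but 47.5% and 47.1% at E14.5, so the later one was then slightly lower in CKO. Summed member UMIs were 0.280% and 0.419% at E13.5, a ratio of 1.49 (1.23 to 1.82), and 0.308% and 0.322% at E14.5, a ratio of 1.05 (0.825 to 1.34). Without thinning the second ratio of summed UMIs was 1.46. Coronary endothelial, mural and endocardial ratios of the share lay between 0.923 and 1.10 at both stages with intervals that included 1. The macrophage ratio was 0.794 at first and 1.40 a day later, and both intervals included 1.

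Fitted over the 4 libraries of each class with stage and genotype as terms, which leaves 1 residual degree of freedom, edgeR called 0 members in any class, and it called 0.120% of all gene and class pairs. DESeq2 also called 0, though it gave no adjusted p for 13 of the 39 epicardial members. With edgeR, between 0 members (macrophages) and 15 members (epicardium) had an unadjusted p under 0.05. In the same 2 classes 203 of 3575 and 580 of 7358 genes did. In epicardial cells 39 of 40 members were tested, all but Cdc6, and all 39 were higher in CKO, with a median log2 difference of 0.74 against 0.01 over all genes (0.109% of genes were called). The largest were Rrm2 at 2.14 ± 0.53 (adjusted p = 0.186, edgeR), Ect2 at 1.61 ± 0.62 (0.508) and Bub1, a spindle checkpoint kinase, at 1.27 ± 0.49 (0.508). Mki67 was at 1.26 ± 0.32 (adjusted p = 0.190, edgeR). In fibroblasts 32 of 40 were lower in CKO, with a median of -0.18 (0.0141% of genes were called), and in valve mesenchyme 33 of 39, with a median of -0.31. Members share cells and libraries, and the share of all genes in each direction is not given here. Such counts of direction are therefore descriptions. With a stricter marker lead 4 members were called in epicardial cells, where 51 of all 7167 genes tested were called higher and 47 lower. With no filter on low counts 3 members were called, where 47 of all 19929 genes were called higher and 26 lower. More genes of every kind were thus called with these settings than in the main fit.

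The reporter and the targeted genes were read next to the labels. In epicardial sums Egfp was at 94.0 and 38.8 CPM in controls and 686 and 585 CPM in CKO. Lats1 was at 31.3 and 51.8 CPM in controls and 16.4 and 21.3 CPM in CKO, and Lats2 at 65.5 and 84.1 CPM against 32.8 and 51.2 CPM. In cardiomyocytes Lats1 and Lats2 stayed within 9.84 to 11.2 and 17.4 to 18.9 CPM in all 4 libraries. A 3' tag may lie outside the deleted part, so it can miss a deletion. Both genotypes carried the reporter, so Egfp does not check the genotype labels, and it was higher in CKO epicardium at both stages. Whether recombination or cell capture differed between the genotypes was not tested. The part of such a difference in the epicardial genotype results was not tested either.

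The difference between classes in the genotype effect could be tested, since epicardial, fibroblast and cardiomyocyte cells of the same library are compared in one fit. This fit leaves 2 residual degrees of freedom, and each genotype and stage still has 1 library. Its p-values therefore do not measure the spread between repeat libraries of a group. For the epicardial effect minus the fibroblast effect 5 members passed, all positive (0.141% of all genes were called higher), and 0 were negative (19 of 10640 genes were). The median over the 40 was 1.02 on the log2 scale against -0.01 over all genes. An unadjusted p under 0.05 was found for 24 members and for 743 of all 10640 genes. For the epicardial minus the cardiomyocyte effect 3 passed, all positive (0.320%), with a median of 0.82. For the fibroblast minus the cardiomyocyte effect 0 passed with either edgeR or DESeq2 (edgeR called 0.00940% of genes lower), with a median of -0.16. An unadjusted edgeR p under 0.05 was found for 2 of the 40 members and for 525 of all 10640 genes.

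**Figure D4:**
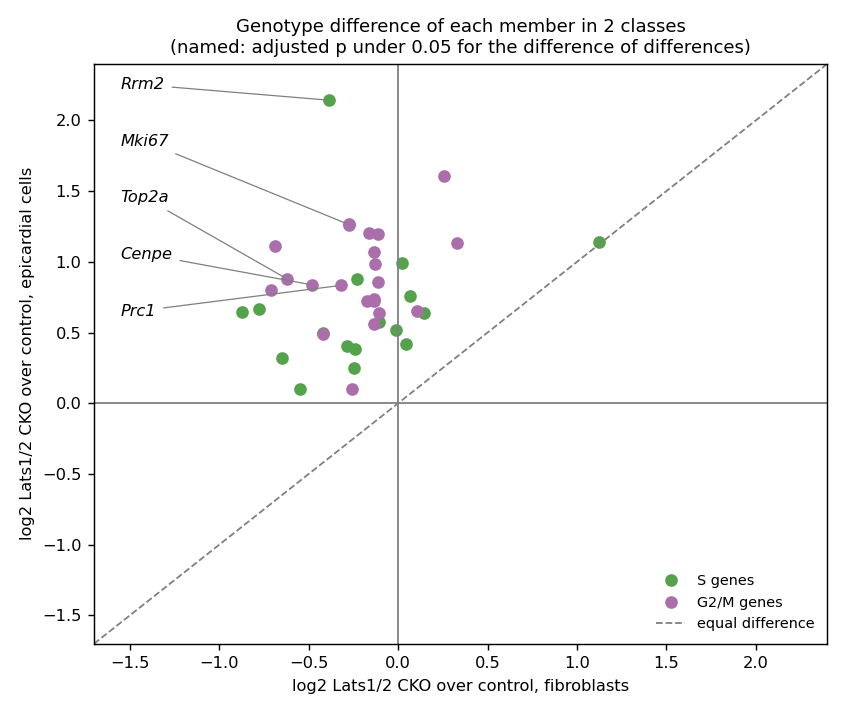
log2 difference of Lats1/2 CKO over control for each member tested in both classes, in epicardial cells (y axis) against fibroblasts (x axis), each fitted over 4 libraries. All points lie above 0 on the y axis and most lie left of 0 on the x axis; the 5 named genes passed the edgeR test of the difference, and the dashed line marks equal differences.

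Rrm2 differed most. In epicardial cells it was at 14.2 and 103 CPM in control and CKO of E13.5, on 5 and 69 UMIs, and at 25.9 and 53.4 CPM in those of E14.5, on 4 and 25 UMIs. In fibroblasts it was at 228 and 129 CPM on the earlier day and 71.0 and 96.6 CPM on the later. Both CKO libraries were above both controls in the epicardium, and the fibroblast genotypes overlapped. The difference of the effects was 2.81 ± 0.50 (adjusted p = 0.000291, edgeR) against fibroblasts and 2.53 ± 0.46 (0.00043) against cardiomyocytes.

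Top2a was at 185 and 397 CPM in control and CKO epicardium of E13.5 and 181 and 269 CPM of E14.5, while in fibroblasts it was at 782 and 402 CPM and then 639 and 534 CPM. Both epicardial CKO values lay above both controls, and both fibroblast CKO values lay below both controls. The difference of the effects was 1.60 ± 0.25 (adjusted p = 2.47e-05, edgeR). Mki67 was at 71.2 and 240 CPM and then 129 and 205 CPM in epicardium, and at 390 and 235 CPM and then 310 and 368 CPM in fibroblasts, in the same order. Its difference was 1.68 ± 0.31 (adjusted p = 0.000708, edgeR) against fibroblasts and 1.33 ± 0.29 (0.00712) against cardiomyocytes. Epicardial Mki67 was higher in CKO at both stages without overlap.

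Prc1 (1.20 ± 0.30, adjusted p = 0.0407, edgeR) and Cenpe, the kinetochore motor that aligns chromosomes (1.40 ± 0.35, 0.0481), were the other members that passed against fibroblasts. Prc1 was at 94.0 and 186 CPM in control and CKO epicardium of the earlier day and 129 and 201 CPM of the later. Cenpe was at 68.4 and 115 CPM and then 51.8 and 102 CPM. Ube2c passed against cardiomyocytes (1.17 ± 0.27, adjusted p = 0.0128, edgeR), with 94.0 and 279 CPM and then 129 and 188 CPM in epicardium. For all 3 genes both CKO libraries stood above both controls in the epicardium.

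These calls rest on few libraries and on the tool. DESeq2 called 0 members in either difference. With no term for stage within a class, 3 passed against fibroblasts and 2 against cardiomyocytes, and in that fit 0 passed in either without control E13.5, and without CKO E13.5 0 against fibroblasts and 1 against cardiomyocytes; without control E14.5, 3 passed against fibroblasts. The summed fibroblast markers in the epicardial sums were 19521 and 17941 CPM in control and CKO at E13.5 and 29627 and 18916 CPM at E14.5, with all 10 markers detected, and the cardiomyocyte markers ran from 4192 to 5724 CPM. With all libraries summed, Myl7 alone was at 3050 CPM in epicardium and 3250 CPM in cardiomyocytes. Tnnt2, the highest marker of that list in cardiomyocytes, was at 488 and 14265 CPM. The part of the fibroblast and cardiomyocyte markers in the difference was not tested.

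Among the other pathway genes, 2 more G2 and M genes passed in the epicardial minus fibroblast difference, Kif11, a spindle motor, at 1.91 ± 0.45 and Smc4 at 0.89 ± 0.22. Of the regulators Cdkn1c passed in the opposite direction, at -1.34 ± 0.18 (adjusted p = 6.92e-07, edgeR). Cdkn1c was at 3200 and 2094 CPM in control and CKO epicardium of E13.5 and 3864 and 1917 CPM of E14.5, and at 703 and 849 CPM and then 863 and 1546 CPM in fibroblasts. Cdkn1a, the p21 inhibitor that p53 induces, was at 25.6 and 106 CPM in epicardium of E13.5, and at 0 and 252 CPM in that of E14.5, where the control sum of 154487 UMIs held none. Its epicardial minus cardiomyocyte difference was 3.46 ± 0.45 (adjusted p = 3e-07, edgeR), a fitted value that depends on the prior count and is no bound. The fibroblast minus cardiomyocyte difference of Cdkn1a passed as well, at 2.10 ± 0.40 (adjusted p = 0.00256, edgeR). Its epicardial minus fibroblast difference, 1.36 ± 0.64, did not pass (adjusted p = 0.649, edgeR), so the CKO difference of Cdkn1a was not particular to epicardium. Kif11, Smc4 and Cdkn1a were named after their values were seen.

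The comparison of stages had a regular outcome in the S list. From E13.5 to E14.5 the S share of thinned UMIs was lower in 16 of 16 class and genotype pairs, with a median ratio of 0.753 (range 0.592 to 0.875). The G2/M share was lower in 9 and higher in 7, with a median ratio of 0.980. The ratio of G2/M to S UMIs was therefore higher at E14.5 in 16 of 16, by a median factor of 1.27. In cardiomyocytes the S share was 0.180% and 0.145% in control and CKO of E13.5 and 0.139% and 0.113% a day later, and in coronary endothelium 0.217% and 0.212% against 0.171% and 0.161%. These 16 pairs come from 4 libraries, so stage cannot be told apart from the libraries, and the E14.5 part of the table reached down to 300 genes per cell where the E13.5 part began at 500. Haemoglobin transcripts also rose: they were between 373 and 765 CPM in the non-haemoglobin classes of control E13.5 and between 1909 and 10325 CPM in those of control E14.5, and their part was not tested.

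In the edgeR fits 0 members passed between stages in any class, where 1.15% of gene and class pairs did. DESeq2 called 0 as well, but gave no adjusted p for 15 of 40 members in cardiomyocytes, 19 of 37 in mural cells and 0 to 11 in each other class. With edgeR, 4 to 14 members per class had an unadjusted p under 0.05. The 4 were in epicardium, where 608 of 7358 genes did, and the 14 in cardiomyocytes, where 1751 of 14309 genes did. Of 18 S genes in cardiomyocytes 17 were lower at E14.5, with a median of -0.33, against 12 of 22 G2/M genes with a median of -0.11. The share of all genes lower at E14.5 is not given here, so these counts are descriptions. Outside the members Hmgb2, a chromatin protein counted here with the G2 and M genes, was higher on the later day in all 8 classes and passed in 7. In fibroblasts it was at 252 and 195 CPM in control and CKO of E13.5 and 766 and 676 CPM of E14.5 (1.80 ± 0.21, adjusted p = 0.0171, edgeR).

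Cardiomyocytes were last split by natriuretic peptide transcripts. Among cardiomyocytes with a Myl2 UMI, which marks the ventricle, 1260 had at least 2 Nppa and Nppb UMIs after thinning, 6143 had none, and 1094 with 1 such UMI stayed out. G2/M genes were lower in the natriuretic peptide cells and S genes were not called. The share of cells with at least 3 members was 45.2%, 37.5%, 37.4% and 31.4% in negative cells of control E13.5, CKO E13.5, control E14.5 and CKO E14.5, and 27.9%, 29.0%, 26.9% and 26.3% in positive cells. It was lower in positive cells in 4 of 4 libraries, by 10.3 points ± 5.14 (an exact two-sided sign-flip permutation test gives p = 0.13, the smallest that 4 libraries allow), and every positive value lay below every negative one. Unthinned shares were 49.3% to 75.2% in negative cells and 48.1% to 63.9% in positive ones. Cells with 1 such UMI were at 35.6%.

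**Figure D5:**
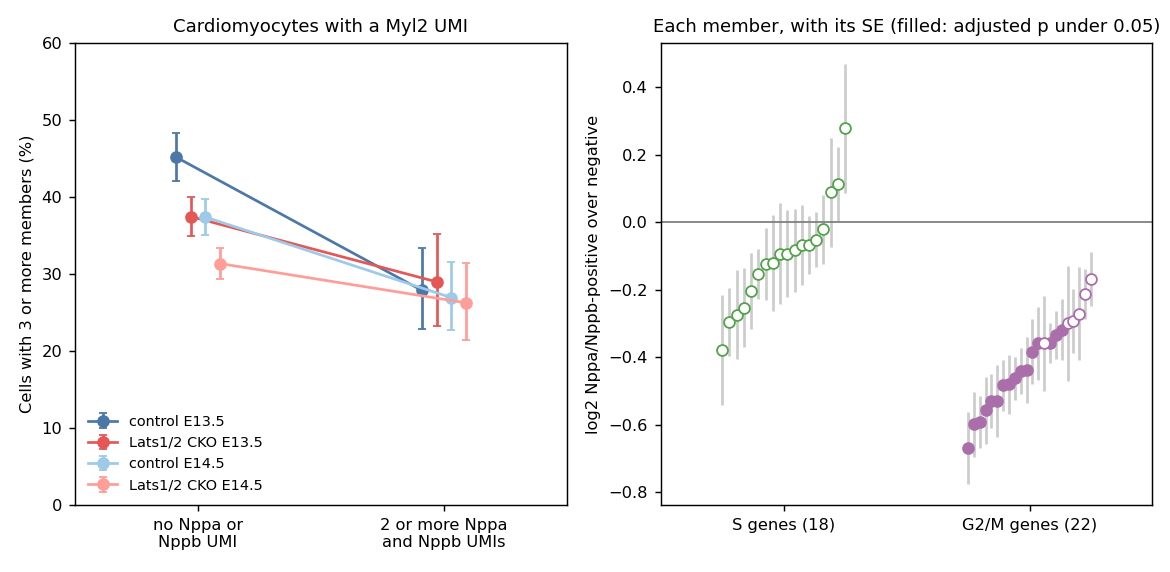
Left, share of cells with at least 3 members (percent, exact binomial 95% intervals) in cardiomyocytes without and with Nppa and Nppb UMIs, with 1 line per library. Right, log2 difference of positive over negative cells for each member with its SE; filled points passed the edgeR test, which holds for 16 of 22 G2/M genes and 0 of 18 S genes.

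With the library as a block, edgeR called 16 members lower in positive cells (2.02% of all genes were) and 0 higher (3.31%), all 16 in the G2/M list. The median was -0.41 over the 22 G2/M genes, -0.09 over the 18 S genes and -0.01 over all genes. Tacc3, which stabilises spindle microtubules, was at -0.67 ± 0.11 (adjusted p = 1.28e-06, edgeR), Cenpe at -0.60 ± 0.10, Cenpf at -0.59 ± 0.08 and Ube2c at -0.46 ± 0.06. Cenpf was at 266, 230, 323 and 313 CPM in negative cells and at 151, 115, 215 and 261 CPM in positive cells, lower in each library although the 2 sets overlap. Pcna was at -0.07 ± 0.09, Mcm3 at -0.02 ± 0.10 and Rrm2 at -0.15 ± 0.07, and none of these passed. The thinned G2/M share in positive cells was 0.615 to 0.825 times that in negative cells, and the S share 0.770 to 0.9899 times. Of the further lists, 19 of 36 G2 and M genes and 2 of 28 S genes were lower, and 4 of 26 regulators were higher, Cdkn1c (0.27 ± 0.06) and the D-type cyclins Ccnd1, Ccnd2 and Ccnd3. Without the library term 0 members passed, and with DESeq2 11 did. The subsets were cut by detected UMIs, so they are ranges of one measure and not cell types.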

How the data were processed

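One table of 24849 cells was used. Per the labels' protocols and the submitters' processing notes, the authors made Drop-seq libraries, aligned them to mm10 with STAR, used Picard and deposited UMI counts per gene and cell; versions, gene models and the cell filter are not given in the sources used here. All values were whole, and 0 columns stayed unused. Cells with at least 500 UMIs and 300 genes and at most 20% mitochondrial UMIs were kept.

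Lineages were gated on scaled marker scores (at least 0.4, and 1.5 times any other), with thresholds set after the scores were seen. Epicardial, valve and mural cells needed the same cut and lead among themselves, and valve and mural cells no Tcf21 UMI. Fibroblasts needed a fibroblast score of at least 0.4, the other mesenchymal scores below 0.4 and a Tcf21 UMI before thinning. Coronary endothelial and endocardial cells had a lower cut, with 1.5 times the score of the other. Each cell was thinned to 500 UMIs. Scrublet called 7, 0, 1 and 2 cells as doublets, which is too few to be usable, so cells of mixed lineage were left out. UMIs were summed per class and library and tested with edgeR 4.0.16 (R 4.3.3; TMM, filterByExpr, quasi-likelihood), p-values adjusted over all genes tested. Classes and natriuretic peptide subsets were fitted with the library as a block, since they come from the same libraries, and genotype with stage. Shares used scipy 1.17.1. Alternatives were DESeq2 1.42.0, other size factors, no filter, a stricter gate (2 times), other thinning, each library left out and, chosen after seeing the data, classes from clustering with scanpy 1.11.5. The tests were run on simulated data with known changes. The epicardial genotype fit recovered 9.5% of 2-fold and 72% of 4-fold changes. The epicardial against fibroblast difference recovered 4.5% and 45.5%, and the epicardial class comparison 70.5% of 2-fold changes. A count of 0 members for genotype therefore does not exclude 2-fold changes.

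The members, lists and markers were chosen with earlier results of these data known. Values are given for the 4 S and 6 G2/M members with the most UMIs, members that passed in the genotype comparisons, and the 2 top genes of each further list; other names were chosen after their values were seen. Promoter letters came from RefSeq windows.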

Additional observations from a re-analysis of the deposited data

Results flagged for a closer look

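8 member results differed in their Lats1/2 CKO effect between classes by edgeR's test of the difference itself. The log2 effect in epicardial cells minus that in fibroblasts was 2.81 for Rrm2, 1.60 for Top2a, 1.68 for Mki67, 1.20 for Prc1 and 1.40 for Cenpe. The effect in epicardial cells minus that in cardiomyocytes was 2.53 for Rrm2, 1.33 for Mki67 and 1.17 for Ube2c. In each case both CKO libraries lay above both control libraries in the epicardium, on 61 to 183 cells a library. DESeq2 called 0 of them, and 0 passed when control E13.5 was left out of a fit with no class by stage term.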

How the results depend on the processing

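Depth, small classes and 1 library per genotype and stage limit these results. Summing thinned cells discards most UMIs. In the class fits of these sums 29 members and 3864 genes were tested, and calls over all genes are in brackets. Called members were 5 lower in epicardium (291), 1 higher in fibroblasts (426), 8 lower in valve mesenchyme (465) and 0 in mural cells (428 higher). They were 5 higher in coronary endothelium (548), 14 lower in endocardium (554), 5 higher in macrophages (662) and 3 lower in epicardium against fibroblasts (216). In the epicardial genotype differences against cardiomyocytes and fibroblasts they were 0 and 0, where 0 of 3680 genes were called higher in either. In the natriuretic peptide subsets 4 were lower, as were 39 of 6626 genes. Prc1 then turned to 0.076 in epicardium and 0.15 against fibroblasts. DESeq2 called 3 in fibroblasts, 0 in mural cells, and 0 and 0 in the same genotype differences. No replicate block (no term for the library) gave 2 in fibroblasts, 6 in valve mesenchyme, 0 in mural cells, 15 in endocardium and 0 in the subsets; the cause was not tested. The genotype fits compared CKO with control within stage, and each group has 1 replicate.

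No filter gave 0 in mural cells, 3 for genotype in epicardium, and for stage 1 in valve mesenchyme, 1 in mural cells and 3 in endocardium, where 1 mural gene also passed with other size factors. The stricter gate gave 4 for genotype in epicardium and 5 for the difference against cardiomyocytes, and 3 passed against fibroblasts with no class by stage term. Classes from clustering gave 14 in fibroblasts, 2 in mural cells, 33 in coronary endothelium, and for stage 1 in mural cells and 1 in macrophages. They moved the coronary share to 12.7 points above cardiomyocytes, the summed shares against cardiomyocytes to 1.03 (mural, from below 1), 1.33 (coronary) and 0.738 (endocardial), and the valve E14.5 genotype ratio to 0.862. Leaving out 1 library gave 15 to 28 in epicardium, 2 to 5 in fibroblasts, 7 to 18 in valve mesenchyme, 0 to 1 in mural cells, 9 to 21 in macrophages, 9 to 29 in epicardium against fibroblasts, and 0 to 3 and 0 to 7 in the genotype differences.

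Against cardiomyocytes, the valve share was -17.2 points at 1000 UMIs, -24.3 without thinning and -7.48 with at least 4 members. The endocardial share was -24.4, -21.6 and -12.2 points, and -21.1 with at least 2 members. The fibroblast E13.5 genotype ratio of shares was 0.794 at 1000 UMIs, 0.763 with at least 2 members and 1.005 without thinning, and the cardiomyocyte ratio of that day 0.977 without thinning. Summed ratios without thinning were 0.930 and 0.954 in cardiomyocytes (E13.5, E14.5), and on the later day 1.46 in epicardium, 0.568 in endocardium and 1.49 in macrophages. Of the values of single named members, 535 kept direction and side of the threshold, 112 lost the call and 2 reversed.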
